A study of Mus musculus with 6 samples.

Results

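The 9 genes described here, Malat1, Neat1, Miat, Tunar, Snhg11, Snhg4, Rmst, Pantr1 and Pvt1, make long noncoding RNAs (lncRNAs), are grouped here as nuclear lncRNAs and lie outside imprinted loci. They were chosen by name from the 24594 entries of the count table, and all 9 were found through their NCBI gene identifiers. All 9 were among the 13115 genes with enough counts to test. The choice was made with the genotype difference in these libraries known, so the genes were in effect selected on that difference: their fold changes are given as a description, with no test, and support nothing.

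Nuclear RNA was sequenced from sorted nuclei of the mouse cerebellum in 6 libraries, all from animals aged 7 months. The 3 WT libraries had the genotype Ezh1 wt/wt;Neurod1-Cre and the 3 cKO libraries Ezh1 cKO/cKO;Neurod1-Cre, so the controls carried the Cre driver too. Ezh1 encodes one of the alternative catalytic subunits of Polycomb repressive complex 2, which methylates histone H3 at lysine K27. Neurod1-Cre recombines in cells that use the Neurod1 gene, chiefly the granule neurons in this tissue, and not in every cell of a NeuN-positive sort. The labels do not say whether the 3 libraries of a genotype came from separate animals, so the spread between them may be in part technical.

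An lncRNA acts as an RNA, and many stay in the nucleus at defined bodies or at chromatin. Malat1 gathers at nuclear speckles, stores of splicing factors, while the long form of Neat1 is the scaffold around which paraspeckle proteins assemble. Miat, also called Gomafu, forms dots of its own in neurons and binds splicing factors through a repeated short motif. Other lncRNAs are host transcripts whose introns carry small nucleolar RNAs, or lie beside a developmental transcription factor gene and are used in the neural lineage.

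The ends of Malat1 and Neat1 are shown first, because neither Malat1 nor the long form of Neat1 ends in an ordinary poly(A) tail. Each is cut by RNase P beside a tRNA-like structure, and the new end is protected by a triple helix of U-rich stretches with an A-rich tract. Malat1 lies at chr19:5795690-5802672 and Neat1 at chr19:5824708-5845480, both on the minus strand of GRCm38, the assembly of mm10. The lines below give, 5′ to 3′ from GENCODE M21 transcripts, the 110 bases of Malat1 that precede mascRNA (chr19:5795982-5796091), the last 110 bases of Neat1 (chr19:5824708-5824817), and mascRNA itself (chr19:5795924-5795981), the 58-base RNA released from Malat1. Capitals mark the runs of at least 10 bases that the first pair share.
Malat1: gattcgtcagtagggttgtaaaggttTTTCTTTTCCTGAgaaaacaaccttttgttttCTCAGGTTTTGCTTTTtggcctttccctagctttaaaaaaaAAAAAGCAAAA
Neat1: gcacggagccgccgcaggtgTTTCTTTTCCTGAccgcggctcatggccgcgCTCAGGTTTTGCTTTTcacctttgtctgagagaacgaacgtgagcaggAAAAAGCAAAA
mascRNA: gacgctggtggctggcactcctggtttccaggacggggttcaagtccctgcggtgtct
The shared runs were 13, 16 and 11 bases long and stood in the same order in both genes.

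Miat is shown for its repeats of ACTAAC, the DNA letters of a motif that resembles the intron branch point and is bound by the splicing factor SF1. The gene spans chr5:112213228-112228948 on the minus strand. The 150-base window at chr5:112217300-112217449 holds 4 copies, in capitals.
Miat: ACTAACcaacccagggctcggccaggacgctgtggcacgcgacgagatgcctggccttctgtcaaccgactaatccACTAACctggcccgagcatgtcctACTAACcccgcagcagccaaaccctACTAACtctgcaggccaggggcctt
Searched on the transcript's own strand, a Miat transcript of 9163 bases held 11 copies. Of 2357 lncRNA genes with a transcript of at least 2000 bases, 33.9% held a copy and 6 (Miat included) had at least as many per base as Miat. A Neat1 transcript of 20771 bases held 4 copies and Malat1 none. A match is a description of the letters and not evidence of a bound site.

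Tunar is shown by its promoters, since it was the member whose genotypes stood furthest apart beside their spread. The gene spans chr12:105336594-105383932 on the plus strand. Each line gives 250 bases before to 50 bases after a start site in the RefSeq table for GRCm38.p6, at chr12:105336344-105336643 and chr12:105336743-105337042, with each CG in capitals.
Tunar promoter 1: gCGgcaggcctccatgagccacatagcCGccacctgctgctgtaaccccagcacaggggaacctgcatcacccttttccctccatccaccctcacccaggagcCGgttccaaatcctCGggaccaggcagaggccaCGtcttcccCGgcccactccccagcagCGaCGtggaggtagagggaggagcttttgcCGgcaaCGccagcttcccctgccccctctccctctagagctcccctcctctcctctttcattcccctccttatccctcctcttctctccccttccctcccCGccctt
Tunar promoter 2: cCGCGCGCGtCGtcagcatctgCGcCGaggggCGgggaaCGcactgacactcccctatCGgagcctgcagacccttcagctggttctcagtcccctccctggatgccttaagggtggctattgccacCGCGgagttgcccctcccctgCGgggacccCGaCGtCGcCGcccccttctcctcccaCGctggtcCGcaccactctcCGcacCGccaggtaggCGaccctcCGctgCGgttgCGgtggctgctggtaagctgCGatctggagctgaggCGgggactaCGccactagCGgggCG
The upstream promoter holds 11 CG pairs and the downstream one 30, and 58.6% and 88.3% of the 32851 promoters in that table hold fewer. The table matched 4 of the 9 members. The single promoters of Miat, Snhg11 and Malat1 hold 25, 21 and 10 CG pairs.

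Library totals ran from 6340236 to 8284768 counts. A single unmatched entry held 24.5% to 26.7% of each library, and Malat1 was the second most abundant entry. The edgeR quasi-likelihood test called 76 genes at an adjusted p (Benjamini-Hochberg) below 0.05, which is 0.579% of those tested, with 42 higher in cKO (0.320%) and 34 lower (0.259%), and 1555 (11.9%) had an unadjusted p below 0.05. DESeq2 called 115 of the 3959 genes to which it gave an adjusted p (2.90%), and limma-voom 77 of 13115 (0.587%). Ezh1, counted over the whole gene, was at 76.6 ± 6.19 CPM in WT and 53 ± 2.34 in cKO (SD, n = 3 libraries each; edgeR adjusted p = 0.00671), and this call was lost without WT replicate 3 (0.115) or without cKO replicate 1 (0.0833). CPM are counts scaled to 1000000 of a library's total, corrected by its TMM factor. Xist was at 811 and 831 CPM in replicate 1 of WT and of cKO and at 1.39 to 4.46 CPM in the other 4 libraries, and Eif2s3y, a gene of the Y chromosome, was at 0 in those replicates and at 36.9 to 43.2 CPM in the others. The labels give no sex, and each genotype thus had 1 library of the female pattern and 2 of the male pattern.

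Markers of granule neurons, summed over 15 genes, were at 5685 to 5803 CPM in the WT and 5479 to 6539 CPM in the cKO libraries, all 15 were tested, and none was at 0. The called gene among them was Neurod1, a transcription factor gene of this lineage and the gene whose promoter drives the Cre. It was at 142 ± 10.4 CPM in WT and 307 ± 17.7 in cKO (SD, n = 3 libraries each; log2 fold change 1.11, SE 0.08, edgeR adjusted p = 8.03e-10), and its part in the lncRNA values was not tested. Oligodendrocyte markers, summed over 11 genes, were at 469, 406 and 275 CPM in WT and 425, 330 and 731 CPM in cKO. Eomes, the defining factor of unipolar brush cells, was at 15.7, 6.13 and 8.98 CPM in WT and 21.6, 18.7 and 21.1 CPM in cKO (edgeR adjusted p = 0.0868), while the summed level of that cell type's 6 markers, of which Sln had no counts, was 555 to 589 CPM in WT and 553 to 582 CPM in cKO. In bulk nuclei, fewer cells of a type and less RNA per cell cannot be told apart.

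Malat1 was by far the most abundant member and the steadiest. It was at 47445, 45840 and 44370 CPM in WT and at 42134, 41496 and 44552 CPM in cKO. The third cKO library lay above the lowest WT library, so the genotypes overlapped. The log2 fold change, cKO over WT, was -0.10 (SE 0.04, 95% interval -0.19 to -0.01), and it stayed between -0.13 and -0.08 with each library left out. Malat1 took 4.70%, 4.50% and 4.41% of all counts of the WT libraries and 4.29%, 4.24% and 4.43% of the cKO libraries. The 95% Wilson interval of the share in WT replicate 1 was 4.68% to 4.71% and covers counting error only. With the 3 other most abundant entries set aside, Malat1 was 6.58% ± 0.183 of WT counts and 6.15% ± 0.250 of cKO counts (SD, n = 3 libraries each). On that scale the genotypes did not overlap, but the highest cKO library (6.42%) lay only narrowly below the lowest WT library (6.43%).

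Neat1, the paraspeckle scaffold, was at 223, 218 and 221 CPM in WT and at 299, 166 and 325 CPM in cKO. The WT libraries were within a few CPM of each other, while cKO replicates 1 and 3 lay above all of them and cKO replicate 2 below. Its log2 fold change was 0.26 (SE 0.28, 95% interval -0.51 to 1.03). Without cKO replicate 2 it was 0.50, and edgeR then called Neat1 too. Without cKO replicate 3 it was 0.08 and without cKO replicate 1 it was 0.16. The within-genotype SD of Neat1 on the log2(CPM + 0.5) scale was 0.37, against a median of 0.09 for the 988 genes within 2-fold of its level. Of those 988, 6 (Neat1 included) were at least as variable.

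Miat was at 37.5, 29.1 and 35.7 CPM in WT and at 130, 37.7 and 65.6 CPM in cKO. Every cKO library lay above every WT library, but cKO replicate 2 passed the highest WT library only narrowly, and replicate 1 was far above the rest. The genotypes differed 2.29-fold, a log2 fold change of 1.19 (SE 0.54, 95% interval -0.27 to 2.66). Without cKO replicate 1 it was 0.60, and without cKO replicate 2 it was 1.52. Replicate 1 was the library of the female pattern in each genotype, and without replicate 1 of both genotypes the log2 fold change was 0.67. Of the 3500 genes within 2-fold of its level, 7 (Miat included) varied at least as much within genotypes.

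**Figure D1:**
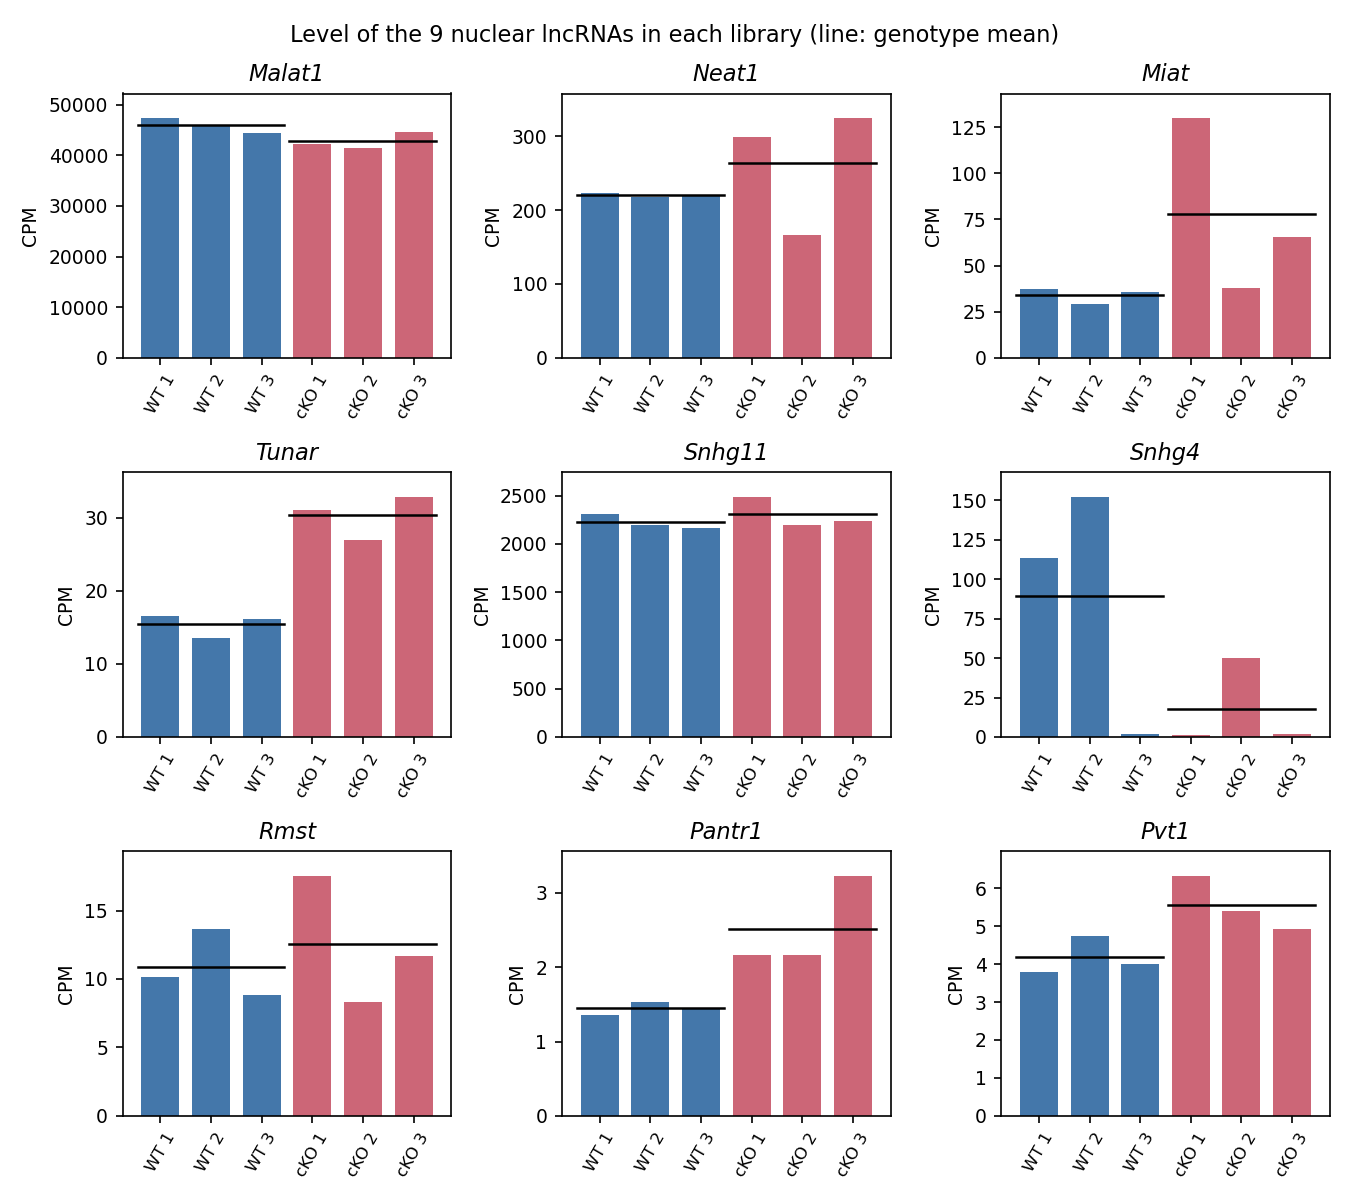
Level of each lncRNA in each library, in CPM (linear axis from 0, its own scale in each panel). Bars are single libraries, WT in blue and cKO in red, and black lines are the mean of 3 libraries. Tunar was at 13.5 to 16.6 CPM in WT and 27.0 to 32.9 CPM in cKO, whereas Snhg4 was high in WT 1, WT 2 and cKO 2.

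Tunar is an lncRNA of the embryonic stem cell and neural lineage that also has a short reading frame. GENCODE types it as protein coding and RefSeq as lncRNA. It had the only member value below the adjusted p threshold in edgeR, where 0.579% of all tested genes were. Since the choice of members used this contrast, nothing is read from that count. Tunar was at 16.6, 13.5 and 16.1 CPM in WT and at 31.1, 27.0 and 32.9 CPM in cKO. The lowest cKO library was well above the highest WT library. The means were 15.4 ± 1.67 and 30.3 ± 3.02 CPM (SD, n = 3 libraries each), a 1.97-fold difference with a log2 fold change of 0.98 (SE 0.15, 95% interval 0.67 to 1.28). With each library left out the log2 fold change stayed between 0.89 and 1.05. DESeq2 estimated the same log2 size, 0.98, but gave Tunar no adjusted p. Eomes, given above, was also higher in every cKO library than in any WT library, and its part in the Tunar difference was not tested.

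Rmst and Pantr1 are both tied to neural transcription factors. Rmst (chr10:92081746-92165178, minus strand) is an lncRNA that works with SOX2 in neural progenitors. It was at 10.1, 13.7 and 8.86 CPM in WT and at 17.6, 8.34 and 11.7 CPM in cKO, and the genotypes overlapped on both sides. Its log2 fold change was 0.21 (SE 0.24, 95% interval -0.29 to 0.71), and -0.11 without cKO replicate 1, so even its sign rested on that library. Pantr1 (chr1:42648200-42694825, minus strand) starts close to Pou3f3, which encodes a POU-domain factor of neural development. It was at 1.36, 1.53 and 1.46 CPM in WT and at 2.16, 2.16 and 3.23 CPM in cKO. All cKO libraries lay above all WT libraries, but these levels rest on 9 to 12 counts in a WT library and 14 to 21 in a cKO library. For Pantr1 the log2 fold change was 0.79 (SE 0.45, 95% interval -0.14 to 1.71).

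The small nucleolar RNA host genes behaved unlike each other. Snhg11, a neuronal host gene at chr2:158375713-158386474 that GENCODE types as protein coding and RefSeq as lncRNA, was at 2311, 2196 and 2168 CPM in WT and at 2491, 2195 and 2238 CPM in cKO. The highest library exceeded the lowest 1.15-fold, and the genotypes overlapped. The log2 fold change was 0.05 (SE 0.06, 95% interval -0.07 to 0.18), and -0.0045 without cKO replicate 1. The whole interval lay within 2-fold in either direction, as it did for Malat1 and Rmst and for no other member.

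Snhg4, a host gene on chromosome 18, split the libraries across the genotypes. It was at 113, 152 and 2.06 CPM in WT and at 1.15, 50.3 and 1.69 CPM in cKO. WT replicates 1 and 2 and cKO replicate 2 were high, with 749, 1094 and 326 counts, and the other 3 libraries held 17, 8 and 11 counts. The log2 fold change was -2.34 with an SE of 1.84 (95% interval -7.37 to 2.70), and leaving out a library moved it between -5.95 (without cKO replicate 2) and -1.69 (without WT replicate 2). No difference between genotypes was detectable beside a spread of that size.

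The split was looked at further after its values were seen. Among the 10222 tested genes whose mean reached 5 CPM, Snhg4 had the second widest range over the 6 libraries, 6.53 on the log2(CPM + 0.5) scale, after Xist at 8.78. Of the replicates with high Xist, that of WT was among the libraries with high Snhg4 and that of cKO was not. The protein-coding neighbours did not follow it. Matr3, 3842 bases away, was at 113 to 132 CPM, and Sil1 at 11.1 to 19.9 CPM. Snora74a and Mir1949, which lie inside Snhg4, had no counts in any library. Overlapping genes cannot be told apart by their reads here, so these zeros do not show that the small RNAs were absent. Of the genes whose Pearson r with Snhg4 over the 6 libraries was above 0.9, 95 in number, none had a range as wide as 4-fold, and the widest was 2.47-fold. Rprl3, which encodes an RNase P RNA, did not pass that r but also had a wide range (5.59). It was at 23.1, 17.4 and 23.5 CPM in WT and at 0.576, 18.2 and 0 CPM in cKO. Unlike Snhg4, Rprl3 was high in WT replicate 3. What set the level of Snhg4 in a library was not tested.

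**Figure D2:**
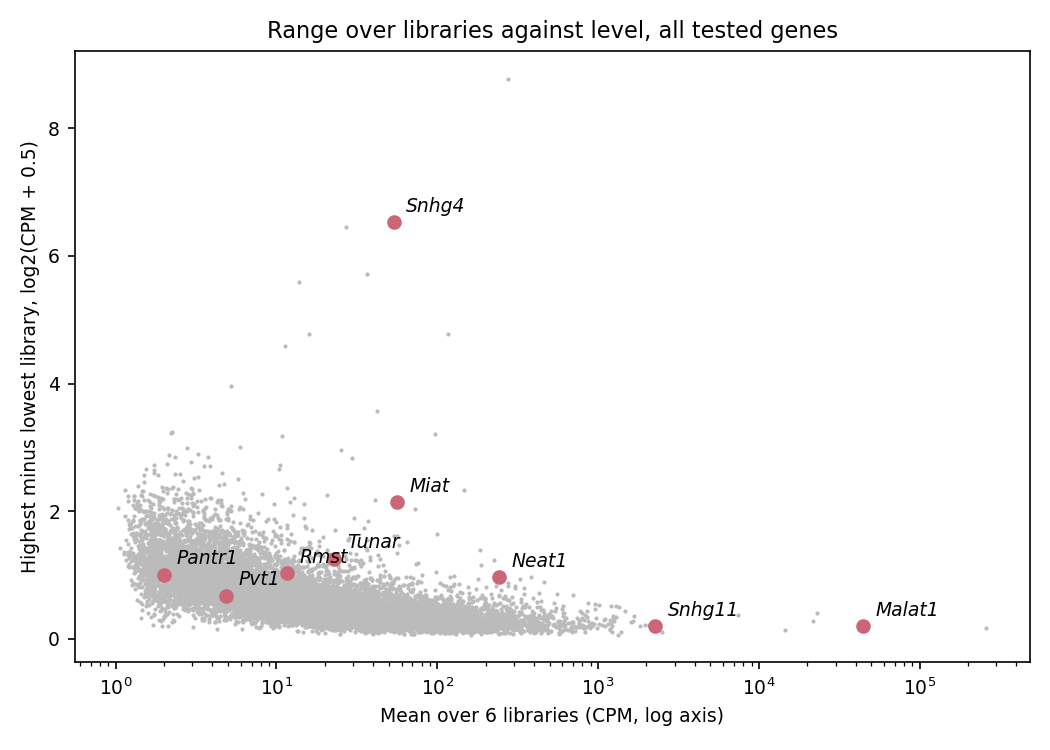
Range over the 6 libraries (highest minus lowest, log2(CPM + 0.5)) against the mean level (CPM, log axis) for the 13115 tested genes in grey, with the 9 lncRNAs in red. Snhg4 at 6.53 and Miat at 2.14 stand above genes of like level, while Malat1 at 0.19 and Snhg11 at 0.20 vary little.

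Pvt1 (chr15:62037986-62260215, plus strand), the lncRNA next to Myc, was at 3.78, 4.74 and 4.01 CPM in WT and at 6.33, 5.40 and 4.92 CPM in cKO. The cKO libraries were all higher, the closest by a narrow margin. Pvt1 had a log2 fold change of 0.41 (SE 0.29, 95% interval -0.19 to 1.01), from 25 to 44 counts per library. Myc itself had 0.418 to 1.46 CPM and did not reach the test.

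Over the 9 members, 7 had a positive log2 fold change and the median was 0.26, against -0.006 for all tested genes. The median was 0.43 without cKO replicate 2, 0.41 without WT replicate 2, and 0.16 without cKO replicate 1, where 5 of 9 were positive. In CPM, Miat, Tunar, Pantr1 and Pvt1 had every cKO library above every WT library, and no member had every cKO library below. Among all tested genes, 7.88% were separated upward and 8.39% downward, but the members were picked with these values in view and nothing is read from the comparison. In cKO, 6 of the 9 members had their lowest value in replicate 2 (Malat1, Neat1, Miat, Tunar, Snhg11 and Rmst), while Snhg4 was highest there. The share of all tested genes that were lowest in that library was not counted, so nothing is read from the 6 of 9. Replicate 2 of cKO also had the lowest oligodendrocyte marker sum of the cKO libraries (330 CPM) and the highest granule neuron sum (6539 CPM). The part of these marker levels in the lncRNA values was not tested.

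**Figure D3:**
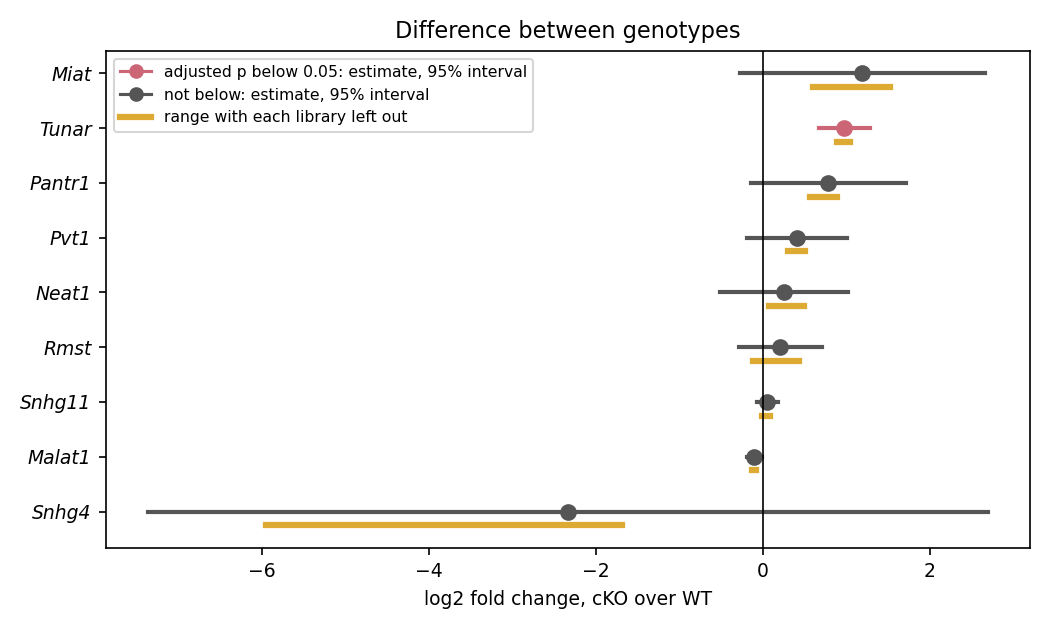
Log2 fold change, cKO over WT, of each lncRNA (dot) with its 95% interval from edgeR (line), and the range of the estimate when each library was left out in turn (yellow). Tunar, in red, has an interval from 0.67 to 1.28, while that of Snhg4 runs from -7.37 to 2.70.

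Between genes, levels were compared per kilobase of annotated exon. Malat1 led at 6571 ± 220 CPM per kb in WT, followed by Snhg11 at 261 ± 8.90, and neither range over the 6 libraries overlapped that of the next member. Then came Snhg4 at 19.1 ± 16.7 and Neat1 at 10.6 ± 0.121 CPM per kb, which do not differ beyond their spread: Snhg4 was the higher of the pair in only 3 of 6 libraries. Miat was at 3.67 ± 0.474, Tunar at 2.51 ± 0.272 and Rmst at 1.47 ± 0.335 CPM per kb in WT, with overlapping ranges between neighbours over the 6 libraries, although Neat1 exceeded Miat and Tunar exceeded Rmst in all 6. Pvt1 at 0.597 ± 0.0716 and Pantr1 at 0.325 ± 0.0194 CPM per kb were lowest, and their ranges overlapped too. Nuclear RNA includes intron reads, and the sources used here do not say whether these entered the counts, so the per-kilobase levels of spliced genes are uncertain.

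The profiles most like those of Tunar and Malat1 were picked by Pearson r of log2(CPM + 0.5) over the 6 libraries, among 8037 genes of at least 10 CPM. For Tunar they were Atp2b4 (r = 0.994), a plasma membrane calcium pump gene, Mtus1 (0.990) and Rab6b (0.986). Atp2b4 was at 28.5 ± 2.61 CPM in WT and 44.1 ± 2.29 CPM in cKO. For Malat1 they were Polr2m (0.983), Haus5 (0.982) and Atad2b (0.981). With 6 points and this many genes, values of r this high are a ranking only.

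The genes around the members were looked at next: the nearest protein-coding gene on each side and any gene inside. Of 24 such genes 20 were in the table and 9 were tested. EdgeR and limma-voom called none of the 9, DESeq2 called none of the 4 to which it gave an adjusted p, and 1 had an unadjusted p below 0.05 in edgeR. That gene was Ralgapb, which encodes a regulator of Ral GTPases and lies 23356 bases past Snhg11. It was at 92.3 ± 2.95 CPM in WT and 108 ± 5.91 CPM in cKO (log2 fold change 0.23, SE 0.08, edgeR adjusted p = 0.240). Pou3f3, 943 bases from Pantr1, was at 20.4 ± 1.01 and 23.7 ± 4.72 CPM (0.21, SE 0.16, edgeR adjusted p = 0.647). The next by p were Frmd8, 5494 bases from Neat1 (0.15, SE 0.15, edgeR adjusted p = 0.751), and Tmpo, as far as 899994 bases from Rmst (-0.11, SE 0.11, edgeR adjusted p = 0.757). The genes that flank Tunar, Tcl1 and D430019H16Rik, were too low to test.

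Proteins of the bodies that these lncRNAs occupy were then counted. Of 22 paraspeckle protein genes, all tested, none was called by edgeR, 2 were at an unadjusted p below 0.05 (9.09%, against 11.9% of all tested genes), DESeq2 called 2 of the 18 to which it gave an adjusted p (2.90% of all such genes were called), and limma-voom called 0. Their median log2 fold change was -0.06, with 10 positive. The 2 were Taf15, which encodes an RNA-binding protein, at 219 ± 28.3 CPM in WT and 176 ± 6.83 in cKO (-0.31, SE 0.09, edgeR adjusted p = 0.0988), and Cirbp, the cold-inducible RNA-binding protein, at 93.3 ± 16.0 and 67.9 ± 11.8 CPM (-0.46, SE 0.14, edgeR adjusted p = 0.185). Every cKO library was below every WT library for both. Without WT replicate 1 edgeR called 2 of the 22 and without cKO replicate 2 it called 1, all lower in cKO. As in the full fit, none was called without WT replicate 3, cKO replicate 1 or cKO replicate 3. None was called either without WT replicate 2, the highest WT library for both Taf15 and Cirbp. The log2 fold changes were then -0.20 for Taf15 and -0.32 for Cirbp (edgeR adjusted p = 0.542 and 0.523).

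Of 24 genes of nuclear speckle proteins and Malat1 partners, all tested, none was called by edgeR, but 6 had an unadjusted p below 0.05, all lower in cKO (25%, against 11.9% of all tested genes in either direction). DESeq2 called 3 of the 21 to which it gave an adjusted p (2.90% of all such genes were called). Limma-voom called 1 of 24 (0.587% of all tested genes were called). The median was -0.10 and 7 were positive. Pnisr, a serine and arginine rich speckle protein, was at 1051 ± 102 CPM in WT and 853 ± 61.2 in cKO (-0.30, SE 0.07, edgeR adjusted p = 0.0539). Rbm25, a splicing regulator, was at 544 ± 94.0 and 379 ± 39.4 CPM (-0.52, SE 0.11, edgeR adjusted p = 0.0708). Leaving out WT replicate 1 gave 3 calls and leaving out cKO replicate 3 gave 2, all lower in cKO. WT replicate 2 had the highest sum of these genes, 7826 CPM against 6726 and 7040 in the other WT libraries. As in the full fit, none of the 24 was called without it, nor without WT replicate 3, cKO replicate 1 or cKO replicate 2. An unadjusted p below 0.05 was reached by 3 without WT replicate 2 (1044 of all 13367 genes tested in that fit). It was reached by 4 without cKO replicate 1, 4 without cKO replicate 2 and 6 without WT replicate 3. Without WT replicate 2 the log2 fold changes were -0.22 for Pnisr and -0.37 for Rbm25 (edgeR adjusted p = 0.416 and 0.0983). For Rbm25 they were -0.47 without cKO replicate 1 and -0.49 without cKO replicate 2 (edgeR adjusted p = 0.276 and 0.254). For Pnisr they were -0.29 and -0.26 (edgeR adjusted p = 0.266 and 0.0817).

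Of 11 genes that work with the members or are their known targets, such as the Miat-binding proteins SF1, QKI and CELF3 and the Rmst partner SOX2, 10 were tested. EdgeR and limma-voom called none of the 10, DESeq2 none of the 5 to which it gave an adjusted p, and 0 had an unadjusted p below 0.05 in edgeR. The smallest p belonged to Zfp36l1, an RNA decay factor, at 4.35 ± 0.390 CPM in WT and 2.57 ± 1.37 in cKO (-0.76, SE 0.38, edgeR adjusted p = 0.444), and to Qk at 125 ± 6.46 and 145 ± 29.1 CPM (0.21, SE 0.11, edgeR adjusted p = 0.503).

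**Figure D4:**
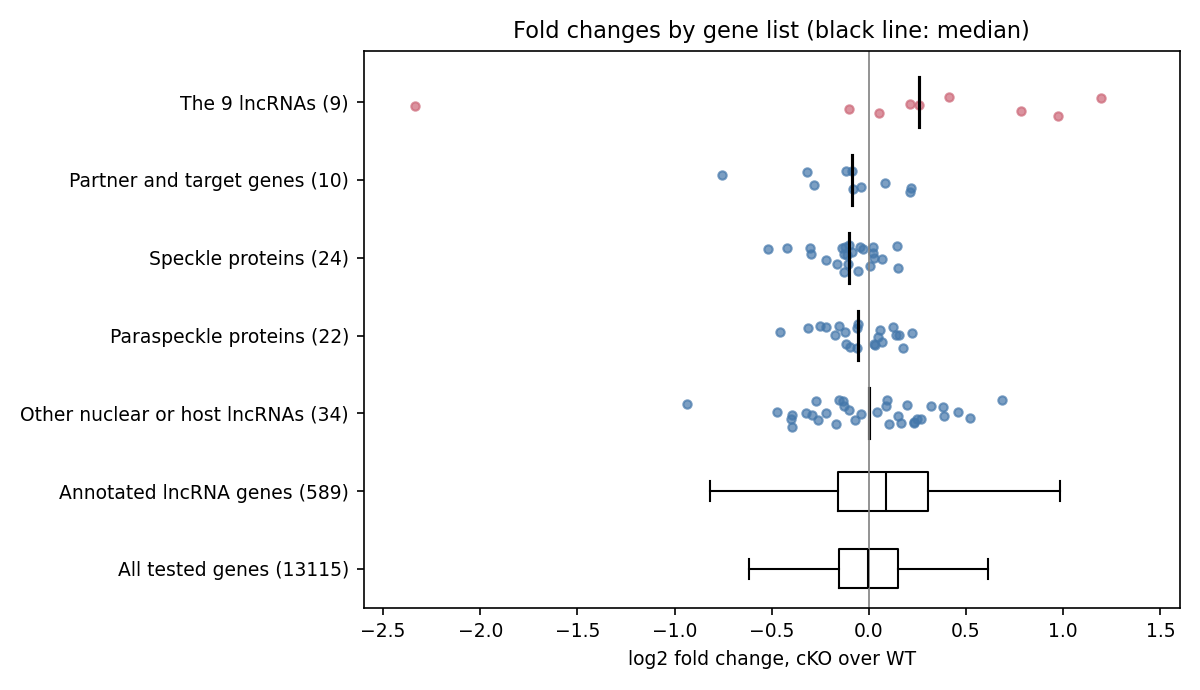
Log2 fold change, cKO over WT, by gene list, with the number of tested genes in brackets. Dots are genes and black lines medians. For the large lists, boxes span the quartiles and whiskers reach the last gene within 1.5 box lengths. The median is 0.26 for the 9 lncRNAs, -0.10 for speckle proteins, -0.06 for paraspeckle proteins and 0.09 for annotated lncRNA genes.

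Among 52 other lncRNA genes outside imprinted loci, 48 were in the table and 34 were tested. EdgeR and limma-voom called none of the 34, and DESeq2 none of the 11 to which it gave an adjusted p. In edgeR 7 had an unadjusted p below 0.05 (20.6%, against 11.9% of all tested genes), and 17 of 34 were positive (median 0.002). The smallest p belonged to Lncpint, a p53-induced lncRNA, at 120 ± 3.81 CPM in WT and 145 ± 4.59 in cKO (log2 fold change 0.27, SE 0.08, edgeR adjusted p = 0.135), and to Sox2ot, the lncRNA that overlaps Sox2, at 8.73 ± 1.39 and 14 ± 4.49 CPM (0.69, SE 0.23, edgeR adjusted p = 0.195). Sox2ot was at 16.5, 8.80 and 16.6 CPM in the cKO libraries, low in replicate 2 as Neat1 and Miat were, and without that library it was called (0.93, edgeR adjusted p = 0.0261).

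Of all 2314 annotated lncRNA genes, 589 were tested, and edgeR called 3, all higher in cKO: Tunar, Srrm4os and Rian. That is 0.509% of those tested, near the 0.579% of all genes. Srrm4os, antisense to a neuronal splicing factor gene, was at 71.9 ± 5.97 CPM in WT and 123 ± 11.1 in cKO (0.78, SE 0.09, edgeR adjusted p = 1.54e-05), and Rian, of an imprinted locus, at 385 ± 24.9 and 497 ± 49.5 CPM (0.37, SE 0.08, edgeR adjusted p = 0.0214). With libraries left out the count was 7 without WT replicate 1, 6 without cKO replicate 2, and 2 when WT replicate 2, WT replicate 3 or cKO replicate 1 was left out, or replicate 1 of both genotypes, all higher in cKO. Rian lost its call in those 4 fits (edgeR adjusted p of 0.163, 0.174, 0.239 and 0.125) and when cKO replicate 3 was left out (0.0521), and Srrm4os kept its call in each of these fits. Of the 589, 352 were positive (59.8%), against 48.8% of all tested genes, with a median of 0.09. Leaving the members out, the median was 0.08. Below 10 CPM 58.0% of lncRNA genes and 46.7% of protein-coding genes were positive, and at 10 CPM or more 64.3% and 49.0%. The lncRNA median was 0.03 without WT replicate 2 and 0.11 without WT replicate 3.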

How the data were processed

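The authors deposited 1 table of raw gene counts, in whole numbers, with a column for each of the 6 libraries. Per the labels' protocols, cerebellar nuclei were pelleted through iodixanol, fixed in formaldehyde, sorted for NeuN, and RNA was taken with a kit for fixed tissue before NEBNext Ultra II library preparation. Reads were handled with Subread against mm10, per the submitters' processing notes. The sources used here do not give the annotation or the handling of strand, intron reads and multiply mapped reads. Overlapping or antisense genes, such as those at Pantr1, Snhg4, Sox2ot and Srrm4os, therefore cannot be told apart by their reads, nor can near-identical copies. The identifiers were named from RefSeq for GRCm38.p6 (24570 of 24594 matched), and exon lengths are from GENCODE M21.

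Genes were kept by filterByExpr and tested in edgeR 4.0.16 (R 4.3.3; TMM, robust quasi-likelihood fit, two-sided, genotype as the only term, all 6 libraries), with Benjamini-Hochberg adjustment over all 13115 tested genes and calls below 0.05. TMM factors ran from 0.982 to 1.02. Standard errors and 95% intervals are from the same fit. DESeq2 1.42.0 and limma 3.58.1 (voom), other scalings, other filters, a replicate block and leaving out each library were alternatives. The analysis was tested on simulated counts. Libraries of one genotype differed by more than counting noise (chi-square per degree of freedom 4.03 to 5.01 between replicates), so none was merged.

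The members and gene lists were chosen with earlier results of these data known. The genes named are all 9 members, Ezh1, the called neighbours or else the 4 of smallest p, the called genes of each other list (up to 4) or else the 2 of smallest p, and the 3 genes most like Tunar and Malat1. Xist, Eif2s3y, Rprl3, Neurod1, Eomes, Matr3, Sil1, Myc and the genes inside or flanking a member that were not tested were named after their values were seen. The 3 called genes of the annotated lncRNA class are all named.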

Additional observations from a re-analysis of the deposited data

How the results depend on the processing

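Each result was recomputed under 15 alternatives. Of 131 member values, 128 kept their direction. The exceptions were Snhg11 without cKO replicate 1 (-0.0045; -0.0045 to 0.088 with libraries left out) and Rmst without cKO replicate 1 (-0.11) and without replicate 1 of both genotypes (-0.16; -0.16 to 0.43 with libraries left out). Genes called numbered 115 with DESeq2 and 277 with no low-count filter, against 76, and 13 to 249 with libraries left out (43 without replicate 1 of both genotypes). Members called were 0 with DESeq2 (5 had an adjusted p, Tunar not among them) and 1 to 2 with libraries left out, and the median of the members was 0.16 to 0.43. The other lncRNA genes called were 0 to 1 with libraries left out. Annotated lncRNA genes called were 8 with no low-count filter and 2 to 7 with libraries left out. Paraspeckle protein genes called were 2 with DESeq2, 2 with no low-count filter, 1 with the replicate block and 0 to 2 with libraries left out. Speckle protein genes called were 1 with library size alone, 3 with DESeq2, 1 with limma-voom, 3 with no low-count filter, 2 with the replicate block and 0 to 3 with libraries left out. No neighbour gene was called under any alternative. The cause of these changes was not tested. By correlation over all tested genes, the replicate numbers did not pair the samples. Same-numbered libraries had correlations of deviations of 0.15, 0.0055 and -0.04, and 2 of 6 libraries correlated best with their own number. With so few pairs this cannot show that the numbers carry no pairing, and replicate 1 had the female pattern in both genotypes. Depth limits Pantr1 and Pvt1, with 9 to 44 counts per library, and Snhg4 in the 3 libraries with 8 to 17 counts.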
